A study of Homo sapiens with 3 samples.

Results

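The 10 genes described here handle cellular iron: TFRC, SLC11A2, STEAP3 and TF serve its uptake, FTH1 and FTL its storage, SLC40A1 and CP its export and oxidation, and ACO1 and IREB2 its regulation. They were taken as a named list from the 14836 genes that could be named in the table, and all 10 had a value. The genes were selected on their role in iron handling with the 3 arrays' values already known, among them the TFRC difference between TGF-beta1 and untreated, so the values below describe the genes and support nothing by themselves. Total RNA came from sarcospheres, the floating spheres formed by MNNG/HOS cells, an osteosarcoma line of human origin made from HOS cells by carcinogen treatment, in serum-free DMEM/F12 medium, and was hybridised to NimbleGen one-colour (Cy3) expression arrays. The untreated culture received no agent, the TGF-beta1 culture received 4 ng/mL of that growth factor, and the hypoxia culture was kept under low oxygen at a level not given in the sources used here. All 3 cultures were collected after 5 days, and serum-free suspension growth is shared by the untreated culture. Each condition is 1 culture on 1 array, so there is no replicate error, no p-value is given, and every statement holds for these arrays alone.

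Cells take up iron mainly as transferrin bound to the transferrin receptor, reduce it inside endosomes and pass it to the cytosol through a divalent metal transporter. Iron that is not used is stored in ferritin, a shell of heavy and light chains, or leaves through ferroportin. When iron is scarce, the iron regulatory proteins bind hairpins called iron-responsive elements in target mRNAs, which stabilises the transferrin receptor mRNA and blocks translation of the ferritin mRNAs. Ferritin mRNA on an array is therefore not a measure of ferritin protein. Dividing tumour cells are known for high transferrin receptor, and hypoxia-inducible factors and MYC are known to activate its gene.

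Values are the authors' normalized intensities on a linear scale, and no value in the table lies below 50. Every one of the 10 genes has a single feature, so a gene's value is that feature's value, and levels of different genes are not set against each other. A gene was taken as measured above the floor in a comparison when its brighter array of the pair read no lower than the median gene there, which was 410 for untreated, 402 for TGF-beta1 and 427 for hypoxia. A gene was counted as higher or lower at a difference of at least 1.5-fold (0.585 on the log2 scale) above that floor. As a yardstick for single values, features of the same gene were compared in the 1118 genes that have several. For TGF-beta1 minus untreated, their log2 differences had a pooled SD of 0.63 in genes dimmer than the median, 0.38 between the median and the upper quartile, and 0.19 above it. For hypoxia minus untreated the SDs were 0.52, 0.38 and 0.28, and for TGF-beta1 minus hypoxia 0.60, 0.45 and 0.31. This SD (the feature SD below) covers the spread between features on these arrays and leaves out the spread between cultures.

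The promoters of TFRC, FTL and ACO1 are shown because these genes differ between the arrays as described below and were picked for holding, in the 100 bases before the start site, a core of the hypoxia response element, the DNA motif bound by hypoxia-inducible factors. IREB2, which was also called, has its only core at -203 and is not shown. Sequences are from RefSeq on GRCh38.p14, 5′ to 3′ in the direction of transcription, with the core in capitals: ACGTG for TFRC, ACGTG on the opposite strand for FTL (read here as CACGT), and GCGTG for ACO1. The TFRC stretch is chr3:196082091-196082190 on the minus strand, the FTL stretch chr19:48965209-48965308 on the plus strand and the ACO1 stretch chr9:32384543-32384642 on the plus strand.
TFRC: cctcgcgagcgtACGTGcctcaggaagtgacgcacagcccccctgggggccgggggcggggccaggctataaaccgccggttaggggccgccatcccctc
FTL: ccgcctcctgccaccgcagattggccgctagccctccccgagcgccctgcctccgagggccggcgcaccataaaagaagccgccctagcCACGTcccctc
ACO1: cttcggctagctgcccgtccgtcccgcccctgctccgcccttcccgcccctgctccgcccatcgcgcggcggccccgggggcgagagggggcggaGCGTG

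The core begins at position -88 in TFRC, -11 in FTL and -5 in ACO1. The table of promoters (250 bases before to 50 after a start) held 13 entries for 8 of the 10 genes, none of them for FTH1 or CP. On either strand, ACGTG occurs in 21.4% and GCGTG in 36.5% of all 35116 promoters of this length. Among the 8 genes, ACGTG was found in TFRC, FTL and TF, and GCGTG in ACO1, SLC11A2, IREB2 and FTL. The E-box CACGTG, which MYC can bind and which contains ACGTG, was found in none of the 13 entries and occurs in 7.26% of all promoters. The antioxidant element TGACNNNGC, also searched on both strands, was found in none of them and occurs in 13.3%. These are letter matches in short windows and say nothing of binding.

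The best known sequence of this system is the iron-responsive element at the start of the ferritin mRNAs. The FTL entry ends within it, at chr19:48965336-48965358 on the plus strand, and the 23 bases of the transcript from position 28 to 50 are shown with the loop letters CAGTG in capitals.
FTL: tcttgcttcaaCAGTGtttggac
CAGTG occurs on the transcribed strand in the first 50 bases of 6.48% of all promoter entries, and FTL was the only one of the 8 genes with a match there.

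TFRC, the transferrin receptor, was the gene of the set that differed most. It stood at 344 on the untreated array, 1087 with TGF-beta1 and 396 under hypoxia. The TGF-beta1 array was thus the only bright one, 3.16-fold above untreated (log2 difference 1.66) and 2.74-fold above hypoxia (1.45). The feature SDs of its brightness class in these comparisons were 0.38 and 0.45. TFRC is in that class only through its TGF-beta1 value, and the SDs of genes dimmer than the median were 0.63 and 0.60. Hypoxia and untreated differed by 0.20, less than the feature SD of 0.38, and neither array reached its median gene. Among the 7950 genes above the floor, 47 (0.591%) were as much or more higher with TGF-beta1 than untreated, TFRC included. Against hypoxia, 72 of 7941 genes (0.907%) were. TFRC passed the floor only through its TGF-beta1 value, and its difference from untreated was known when the genes were selected. These shares therefore only describe its rank and carry no weight as a test. In bulk RNA such as this, a higher level per cell and a larger share of cells with the mRNA cannot be told apart.

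The other uptake genes did not share this pattern. STEAP3, the ferrireductase of the transferrin cycle endosome, stood at 1716 untreated, 1487 with TGF-beta1 and 2068 under hypoxia. Its differences from untreated were -0.21 and 0.27, within 1.5-fold both times. SLC11A2, the divalent metal transporter DMT1, stood at 259, 163 and 202 in the same order of arrays. It was lowest with TGF-beta1 (log2 difference -0.67), but no array reached its median gene, and the feature SD for such dim genes is 0.63. TF, transferrin itself, made mostly by liver, stood at 102, 51.9 and 78.2. The TGF-beta1 value lies next to the lowest value of the table, so the difference of -0.97 may be understated and TF was below the floor in all 3 comparisons.

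**Figure D1:**
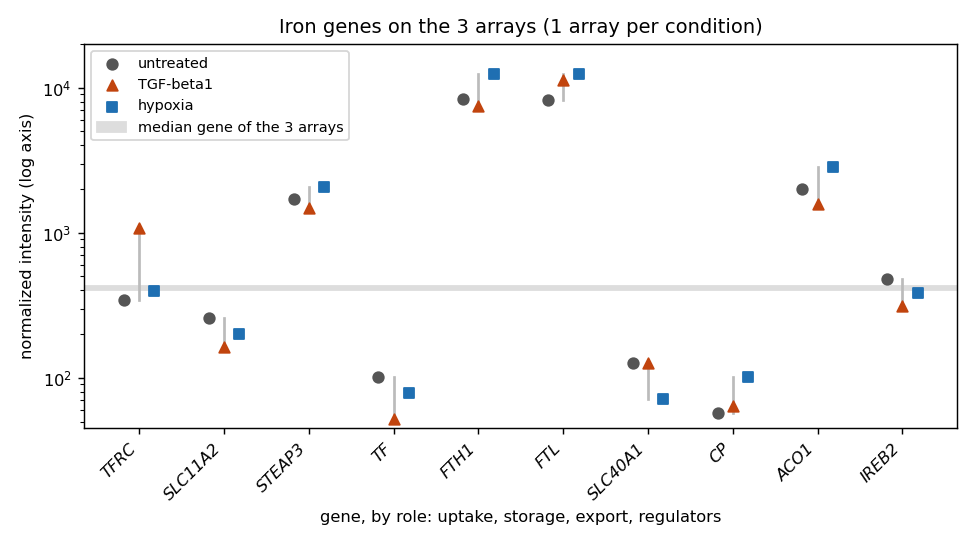
Normalized intensity (log axis) of the 10 iron genes on the untreated (circles), TGF-beta1 (triangles) and hypoxia (squares) arrays, 1 array each. Grey lines span the 3 values of a gene and the grey band spans the arrays' median genes (402 to 427). TFRC stands apart with TGF-beta1 at 1087 against 344 and 396, and TF, SLC40A1 and CP lie below the band on all arrays.

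Of the storage genes, FTL passed 1.5-fold under hypoxia and FTH1 did not. FTL, the ferritin light chain, stood at 8183 untreated, 11381 with TGF-beta1 and 12427 under hypoxia. It was 1.52-fold above untreated under hypoxia (0.60), just past the threshold (0.56 under median centring and 0.57 under loess centring, both short of it), and 1.39-fold above it with TGF-beta1 (0.48), just short of it. The untreated array was the low one, since the other arrays differed from each other by 0.13 against a feature SD of 0.31. FTH1, the ferritin heavy chain with the ferroxidase site, stood at 8336, 7428 and 12326. Hypoxia was here the high array, 1.48-fold above untreated (0.56) and 1.66-fold above TGF-beta1, while TGF-beta1 and untreated differed by -0.17 against a feature SD of 0.19. The ferritin genes have many near-identical processed pseudogenes, so their signal can be shared with those copies.

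TFRC and the ferritins therefore differed unequally on the TGF-beta1 array. The log2 difference of TFRC from untreated exceeded that of FTH1 by 1.83 and that of FTL by 1.18. The corresponding values under hypoxia were -0.36 and -0.40, since TFRC differed less than either ferritin there. These contrasts are within arrays, so a scaling factor common to all genes of an array cancels in them. Effects that depend on intensity, and signal shared with ferritin pseudogenes, need not cancel. The TGF-beta1 contrasts contain the TFRC difference that was known when the genes were selected, so they carry no weight as a test.

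Export and plasma iron oxidation were near the lower limit of the table. SLC40A1, ferroportin, the iron exporter of animal cells, stood at 126 on both the untreated and TGF-beta1 arrays and at 71.0 under hypoxia. CP, ceruloplasmin, a copper ferroxidase, stood at 56.8 untreated, 64.3 with TGF-beta1 and 102 under hypoxia. Hypoxia was thus the low array for SLC40A1 (-0.83) and the high array for CP (0.84), but both genes were below the floor in all comparisons. With no detection calls, whether these values exceed background is unknown.

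Both regulators were dimmest on the TGF-beta1 array, and they differed from untreated in opposite directions under hypoxia. ACO1, the cytosolic aconitase that becomes iron regulatory protein IRP1 when it loses its iron-sulfur cluster, stood at 1990 untreated, 1586 with TGF-beta1 and 2852 under hypoxia. It was 1.43-fold above untreated under hypoxia (0.52, feature SD 0.28) and lower with TGF-beta1 by a difference of -0.33 (feature SD 0.19). Its TGF-beta1 and hypoxia arrays were 1.80-fold apart. IREB2, which codes for IRP2, a regulator degraded when iron is plentiful, stood at 479, 312 and 381. It was lowest with TGF-beta1, 1.53-fold below untreated (-0.62), a difference about the size of the feature SD of 0.63. Under hypoxia IREB2 differed from untreated by -0.33, less than the feature SD of 0.52.

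Of the 10 genes, 6 were above the floor for TGF-beta1 minus untreated, and 1 of them, TFRC, was higher and 1, IREB2, lower. Among all genes above the floor, 12.6% were higher and 11.5% lower. The IREB2 call is lost under median centring, quantile normalization or a pseudocount of 50, and with the platform annotation alone the gene has no name. The TFRC call is lost where the brighter array has to reach its upper quartile. For hypoxia minus untreated, 5 were above the floor and FTL alone was higher, against 8.64% of all genes higher and 5.69% lower. The FTL call is lost under median centring and loess centring. For TGF-beta1 minus hypoxia, 5 were above the floor: TFRC was higher and FTH1 and ACO1 were lower, against 13.2% of all genes higher and 15.3% lower. With the platform annotation alone FTH1 has no name and its call is lost. In this comparison too, the TFRC call is lost where the brighter array has to reach its upper quartile. At 2-fold TFRC was called higher in both comparisons that hold the TGF-beta1 array, and no other member was called in any comparison. The 2-fold shares of all genes were 3.25% higher and 3.86% lower for TGF-beta1 minus untreated, 1.65% and 0.985% for hypoxia minus untreated, and 3.26% and 5.73% for TGF-beta1 minus hypoxia. With counts this small, nothing about the set as a whole is read from these shares.

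**Figure D2:**
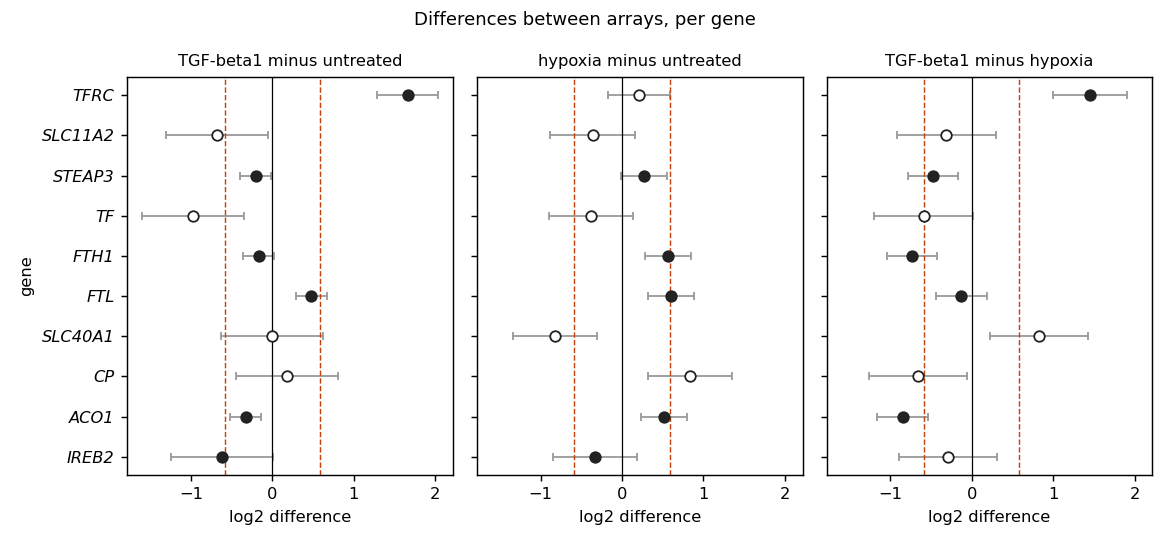
Log2 difference between arrays for each of the 10 iron genes in the 3 comparisons. Filled points are above the floor and open points are not, bars are plus and minus 1 feature SD of genes of like brightness (not replicate error), and dashed lines mark 1.5-fold. TFRC at 1.66 and 1.45 is the only point beyond 1 in either direction.

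The median log2 difference of the 10 genes was -0.19 with TGF-beta1 and 0.24 under hypoxia, each against untreated, and -0.39 when hypoxia was subtracted from TGF-beta1. Over all named genes the medians were -0.003, 0.04 and -0.03. The 3 comparisons share arrays, so they are not independent of each other. Of the 10 genes, 6 (SLC11A2, STEAP3, TF, FTH1, ACO1 and IREB2) were dimmest on the TGF-beta1 array, as were 38.0% of all genes. Hypoxia gave the brightest value of 5 (STEAP3, FTH1, FTL, CP and ACO1), against 35.9% of all genes. TFRC was the only member that was brightest with TGF-beta1, against 35.3% of all genes. Among the set's genes with known iron-responsive elements, the brightest array was TGF-beta1 for TFRC and hypoxia for FTH1 and FTL. SLC11A2 was brightest untreated and SLC40A1 stood at 126 both untreated and with TGF-beta1, and both genes are dim. In the ferritin mRNAs the elements block translation, so these mRNA levels do not show their action. The part of the elements was not tested.

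Cell identity was checked with marker genes. Of 7 measured osteoblast and mesenchymal markers, 6 were above the median gene on at least 1 array, and VIM, the intermediate filament vimentin, stood at 29664, 34423 and 30847. Some of them differed between the arrays. CDH11, the osteoblast cadherin, was lower with TGF-beta1 at 629 against 1742 (-1.47), the fibronectin gene FN1 was higher with it (0.84), and the collagen gene COL1A1 was lower under hypoxia at 959 against 1715 (-0.84). Their part in the differences of the iron genes was not tested. ALPL, the bone alkaline phosphatase, was dim at 63.4 to 71.9. Liver and iron-recycling cells also express genes of this set. Of 6 measured liver markers 1 was above the median gene (SERPINA1), and of 7 macrophage and blood markers 1 was (CD68, a lysosomal protein also made by other cells). The summed intensity of the liver list, which includes TF, was 1915, 1714 and 2555 on the untreated, TGF-beta1 and hypoxia arrays, and that of the macrophage and blood list 1882, 2515 and 2693. Most of each sum is 1 gene: SERPINA1 stood at 1552, 1363 and 2193, and CD68 at 1486, 2095 and 2182. CD14, a monocyte surface protein, stood between 50.2 and 57.3, and CD163, the hemoglobin scavenger receptor of macrophages, between 54.2 and 75.7. CSF1R, also of that list, stood at 87.4 untreated, 131 with TGF-beta1 and 164 under hypoxia (0.91 under hypoxia). Of the 7 macrophage and blood markers, 6 were brighter and 1 dimmer under hypoxia than untreated. Their median was 0.34 against 0.04 over all genes, and all but CD68 were below the floor. The part of these sums and markers in the ferritin differences was not tested. None of the 2 erythroid and 3 endothelial markers with a value was above the median gene.

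The wider iron pathway was described with 9 further lists that hold 119 genes other than the 10, of which 108 had a value. For TGF-beta1 minus untreated, 69 were above the floor, 8 were higher and 6 lower, together 20.3% against 24.0% of all genes. For hypoxia minus untreated, 70 were above it, 9 were higher and 2 lower, together 15.7% against 14.3%. For TGF-beta1 minus hypoxia, 9 were higher and 13 lower of 70, together 31.4% against 28.5%. This last split was 12 and 10 after median centring. The shares are near those of all genes, so the following values describe single genes.

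Other genes of iron import and reduction differed in both directions with TGF-beta1. Of 14 measured genes 5 were above the floor, with 1 higher and 2 lower, beside 12.6% higher and 11.5% lower among all genes. STEAP1, a member of the same family as STEAP3, stood at 264 untreated, 543 with TGF-beta1 and 344 under hypoxia (1.04 with TGF-beta1). LRP1, an endocytic receptor that clears heme bound to hemopexin, stood at 3321, 1666 and 3265, and only the TGF-beta1 array was low (-0.99, feature SD 0.19). Under hypoxia 1 of 5 above the floor was higher, beside 8.64% of all genes. This was CYBRD1, a plasma membrane ferric reductase, which stood at 583 against 274 (1.09), and at 186 with TGF-beta1. SLC39A14, a zinc and iron transporter, stood at 1078, 1456 and 1271, within 1.5-fold of untreated on both arrays. The list medians were 0.17 with TGF-beta1 and 0.18 under hypoxia, against -0.003 and 0.04 over all genes.

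Ferritin handling, iron chaperone and heme export genes had a median of -0.41 with TGF-beta1 and 0.17 under hypoxia. Over all genes the medians were -0.003 and 0.04. With TGF-beta1, 2 of 7 above the floor were lower and 0 higher, beside 11.5% lower and 12.6% higher among all genes. PCBP4, a paralog of the iron chaperones PCBP1 and PCBP2, stood at 3093, 1209 and 2654 in the order untreated, TGF-beta1 and hypoxia. Its 2 features gave -1.34 and -1.37 with TGF-beta1, but 0.31 and -0.76 under hypoxia, so the hypoxia direction is not settled. FLVCR2, a transporter related to the heme exporter FLVCR1, stood at 464, 150 and 208, so the untreated array was the bright one (-1.63 and -1.16). BLVRB, biliverdin reductase B, was higher under hypoxia at 2812 against 1675 (0.75).

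Genes that act on the iron regulatory proteins or on TFRC expression had medians of 0.12 with TGF-beta1 and 0.29 under hypoxia. Over all genes the medians were -0.003 and 0.04. Of 11 above the floor, 2 were higher and 1 lower with TGF-beta1, beside 12.6% and 11.5% of all genes. Under hypoxia 3 were higher and 0 lower, beside 8.64% and 5.69%. Nothing particular to the list is read from so few genes. MYC stood at 478, 935 and 1485, and was higher than untreated on both arrays (0.97 with TGF-beta1 and 1.64 under hypoxia). Its part in the TFRC difference was not tested. EPAS1, a hypoxia-inducible factor subunit whose own mRNA carries an iron-responsive element, stood at 539, 438 and 1654 (1.62 under hypoxia). ZFP36, tristetraprolin, which promotes decay of AU-rich mRNAs and has been linked to TFRC mRNA, stood at 283, 808 and 610 (1.52 and 1.11). FBXL5, the iron-sensing ubiquitin ligase subunit that targets IRP2, stood at 1475, 1208 and 1154, within 1.5-fold; it was named after its values were seen.

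Of the 9 heme breakdown and transport genes above the floor, 3 were higher under hypoxia and 0 lower, beside 8.64% higher and 5.69% lower among all genes, and the list median was 0.24 against 0.04 over all genes. Nothing particular to the list is read from so few genes. HMOX1, heme oxygenase, which frees iron from heme, stood at 1284 under hypoxia against 528 untreated and 506 with TGF-beta1 (1.28 and -0.06). BACH1, the heme-binding repressor of HMOX1 and of the ferritin genes, stood at 828 under hypoxia, 465 untreated and 263 with TGF-beta1 (0.83 and -0.83). The third was BLVRA, biliverdin reductase A, at 2195 against 1292 (0.77), and it was named after its values were seen. NFE2L2, the activator that competes with BACH1 at these genes, stood at 3522, 2790 and 2974 in the order untreated, TGF-beta1 and hypoxia, within 1.5-fold. With TGF-beta1, 0 of the 9 were higher and 1, BACH1, was lower.

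**Figure D3:**
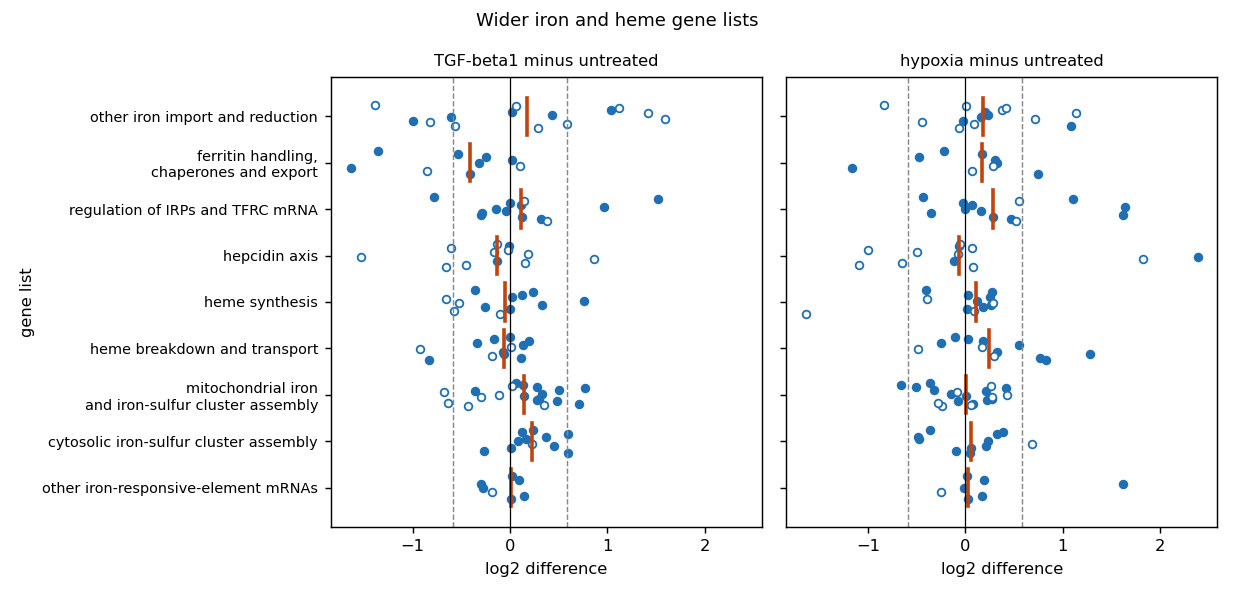
Log2 difference of each measured gene of the 9 wider lists for TGF-beta1 minus untreated (left) and hypoxia minus untreated (right). Filled points are above the floor, open points are not, red bars are list medians and dashed lines mark 1.5-fold. Medians run from -0.41 to 0.23 with TGF-beta1 and from -0.07 to 0.29 under hypoxia, with single genes such as FLVCR2, GDF15 and EPAS1 far outside them.

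The differences of the 10 genes were recomputed under up to 7 other choices of scaling, summary, pseudocount and naming. TFRC ran from 1.53 to 1.74 for TGF-beta1 minus untreated and from 0.15 to 0.20 for hypoxia minus untreated. FTH1 and FTL ran from 0.52 to 0.56 and from 0.56 to 0.60 under hypoxia, and ACO1 from 0.47 to 0.52. The sign held for all 10 genes in both comparisons with hypoxia and for 9 with TGF-beta1 minus untreated. The exception was SLC40A1, which ran from -0.001 to 0.15.

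**Figure D4:**
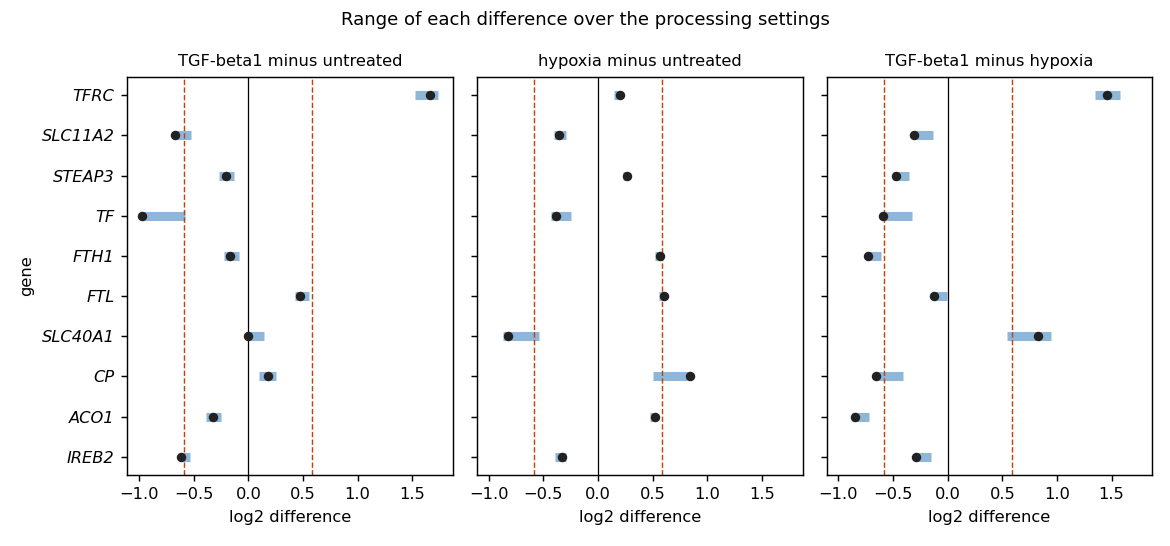
Log2 difference of each iron gene in the 3 comparisons: black points are the reported values, blue bars span all processing settings that give a difference, and dashed lines mark 1.5-fold. TFRC lies at 1.53 to 1.74 (left) and 1.35 to 1.58 (right) under every setting, while FTL under hypoxia spans the 1.5-fold line.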

How the data were processed

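RNA from 3 sarcosphere cultures was measured on 1 array each. The authors deposited 1 linear intensity per feature and array (38572 features). Not stated in the labels or the table are the background correction, probe summary, normalization and filters. The column medians were 383, 363 and 395, so the values were used without further normalization. Precision is limited by the number of arrays.

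Names came from the platform annotation with symbols updated through Entrez (15623 features) or by unversioned RefSeq accession (593 features, among them those of FTH1 and IREB2). The other 22356 were not named. Intensities were taken to log2 without a pseudocount and averaged over the features of a gene (Python 3.11.15, pandas 2.3.3, numpy 2.4.6). No test was run, since each group has 1 array. The calling step was tested on simulated data with changes placed only in genes well above the median. That checks the code and does not bear on genes near the median, such as TFRC and IREB2. The 10 genes, the lists, thresholds and alternatives were chosen with earlier results of these data known. The rule names all 10 genes and, per wider list, the 2 largest differences above the floor in each comparison with the untreated array. Loess centring used statsmodels 0.14.6. The alternatives are median or brightest feature per gene, median centring, quantile normalization, loess centring, a pseudocount of 50, the platform annotation alone, a 2-fold threshold, and no or a stricter filter on dim genes. A named gene of the heme synthesis list is not reported here.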

Additional observations from a re-analysis of the deposited data

How the results depend on the processing

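No paired analysis was possible because each group holds 1 array, and for the same reason no replicate could be left out. Of the 10 genes, 2 were called for TGF-beta1 minus untreated: 1 (TFRC) under median centring, quantile normalization, the pseudocount of 50, the 2-fold threshold and the platform annotation alone, 4 with no filter on dim genes (SLC11A2 and TF added) and 0 with the upper-quartile filter. For hypoxia minus untreated, 1 was called: 0 under median centring, loess centring and the 2-fold threshold, and 3 with no filter (SLC40A1 and CP added). For TGF-beta1 minus hypoxia, 3 were called: 1 at 2-fold, 6 with no filter, and 2 with the upper-quartile filter, which loses TFRC. The median of the 10 genes in that comparison was -0.27 under median centring, which moves the median of all genes by 0.12, and -0.29 with the pseudocount. The other counts of the 10 genes stayed within 1.5 times, and the other medians moved by less than 0.1. Among the wider lists, 14, 11 and 22 genes were called in the 3 comparisons, 4, 7 and 7 at 2-fold, 29, 20 and 35 with no filter, and 7, 5 and 13 with the upper-quartile filter. These changes follow from the threshold or from how many genes are kept. No called gene changed direction. All 204 recomputed differences of the 10 genes, and 600 of the named wider-list genes, moved by less than the feature SD. The 3 exceptions were PCBP4 (2 values) and PFN2 under the brightest feature. Dim signal limits TF, SLC40A1, CP and SLC11A2.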

Other observations

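Genes of heme synthesis and iron-sulfur cluster assembly, the main users of mitochondrial iron, are given as single genes. Among all genes above the floor, 24.0% passed 1.5-fold with TGF-beta1 and 14.3% under hypoxia, each against untreated. Nothing particular to these lists is read from so few genes. Under hypoxia all 8 heme synthesis genes above the floor were within 1.5-fold. UROS, uroporphyrinogen synthase, stood at 2197 untreated, 1717 with TGF-beta1 and 1657 under hypoxia, and UROD, the decarboxylase that follows it, at 3675, 4324 and 4437, all within 1.5-fold of untreated. ALAS1, the rate-limiting first enzyme outside erythroid cells, stood at 4961, 4958 and 5024, and was named after its values were seen.

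Of 12 genes of mitochondrial iron and cluster assembly above the floor, 2 were higher and 0 lower with TGF-beta1. Under hypoxia 0 were higher and 1 lower. Among all genes, 12.6% were higher and 11.5% lower with TGF-beta1, and 8.64% and 5.69% under hypoxia. NDUFAB1, the mitochondrial acyl carrier protein, stood at 2163, 3700 and 2884 (0.77 with TGF-beta1), and BOLA3, a late-acting assembly factor, at 1297, 2124 and 1367, with its features at 0.81 and 0.61. SLC25A28, mitoferrin-2, a mitochondrial iron importer, was lower under hypoxia at 480 against 761 (-0.66), and NFS1, the cysteine desulfurase, stood at 441 against 624 (-0.50). In the cytosolic list, 2 of 10 above the floor were higher with TGF-beta1, NDOR1 (0.60) and BOLA2 (0.60), beside the same 12.6% of all genes. Under hypoxia all 10 were within 1.5-fold, as were most genes, with MMS19 at -0.49 and GLRX3 at -0.47. BOLA2 has a near-identical copy in the genome, so its signal can be shared.

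In the hepcidin list, GDF15, a stress cytokine linked to hepcidin suppression, stood at 1647 under hypoxia against 315 untreated and 109 with TGF-beta1. HAMP, hepcidin itself, was dim on all arrays at 58.4 to 69.7. The receptor gene BMPR1A (691, 631 and 636) and SMAD4 (2093, 2080 and 2004) were within 1.5-fold. Among other mRNAs reported to carry iron-responsive elements, 1 of 6 above the floor, EPAS1, was higher under hypoxia, beside 8.64% of all genes. With TGF-beta1 0 of 6 passed 1.5-fold, beside 24.0% of all genes, with CDC42BPA at -0.28 and PFN2 at 0.09.

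Several dim genes, named after their values were seen, differed by more than 2-fold with TGF-beta1 without reaching the floor. TFR2, the second transferrin receptor, stood at 113 against 297, opposite to TFRC. SLC39A8, a zinc, manganese and iron transporter, stood at 311 against 116, and MELTF, melanotransferrin, at 235 against 78.0, with its 2 features at 1.69 and 1.48. STEAP2 stood at 340 against 157. The size of these differences is not settled, as the table has no detection calls.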
